A study of Mus musculus with 6 samples.

Results

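NRF2-type antioxidant genes were examined in macrophages sorted from regenerating mouse muscle. The list held 10 genes, taken by gene name from the 54966 features of the deposited table, and all 10 were found. Gsr, Slc7a11, Gclc and Gclm serve glutathione, Txnrd1, Prdx1 and Srxn1 serve the thioredoxin branch, and Cat, Hmox1 and Nqo1 are detoxifying enzymes of other kinds. Libraries from old wild-type mice (3) were set against libraries from young wild-type mice (3). The labels used here give neither an age in weeks or months nor a strain or sex. They do not state that each library is its own animal. The p-values set the difference between groups against the spread between libraries, which may therefore be partly technical. Every mouse had received barium chloride, which kills muscle fibres and starts their regrowth, and 3 days later cells of both groups were sorted that bore CD11b and F4/80 and had little Ly6C, which the labels call pro-repair macrophages.

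NRF2, the product of Nfe2l2, is a transcription factor that binds antioxidant response elements together with a small MAF protein. Under resting conditions KEAP1 hands NRF2 to a CUL3 ubiquitin ligase and it is degraded. Oxidants and reactive metabolites block that step, and NRF2 then raises transcription of genes that make glutathione, recycle thioredoxin, supply NADPH and break down heme. BACH1 occupies the same elements as a repressor and leaves them when heme is plentiful. Macrophages in injured muscle take up dead fibres and red blood cells while their own oxidase makes superoxide, so these genes are part of their ordinary work.

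Depth was similar in the groups. From 17890034 to 19400929 fragments were recovered per old library and from 16543935 to 18353690 per young library. The values were FPKM, fragments scaled to gene length and library size, so they can be compared between genes. Macrophage markers (8 genes) summed to 12530 to 16210 FPKM in old and 12980 to 15100 FPKM in young libraries, most of it from Lyz2. Adgre1, which encodes F4/80, Itgam, which encodes CD11b, Cd68 and Fcgr1 were higher in every old library than in any young library, and Csf1r, Lyz2, Mertk and C1qa overlapped. Adgre1 was at 430.2 to 476.3 FPKM in old libraries and 347.4 to 381.7 FPKM in young libraries. Summed markers of muscle fibres (10 genes) were 6.48 to 10.3 FPKM in old and 15.3 to 20.3 FPKM in young libraries, and those of B, T and NK cells (10 genes, of which 4 were at 0 throughout) 14.5 to 19.9 FPKM in old and 23.3 to 53.6 FPKM in young libraries. Fibroblast markers (6 genes) summed to 0.976 to 1.96 FPKM in old and 2.60 to 5.06 FPKM in young libraries, and endothelial markers (6 genes) to 5.08 to 10.2 FPKM in old and 6.98 to 9.01 FPKM in young libraries. Among the endothelial markers Pecam1 was apart and lower in old, at 1.33 to 1.37 FPKM against 2.23 to 2.57 FPKM in young libraries. Kdr and Cdh5 overlapped. Neutrophil markers (6 genes) summed to 39.7 to 51.0 FPKM in old and 34.6 to 42.6 FPKM in young libraries, with Ly6g at 0 throughout. Most of that sum was Csf3r, at 36.1 to 46.8 FPKM in old and 30.2 to 38.95 FPKM in young libraries, with overlapping groups. S100a8 and Mpo also overlapped, and Retnlg was apart and lower in old, at 0.53 ± 0.33 FPKM against 1.65 ± 0.66 FPKM in young libraries (SD, n = 3 each). Monocyte markers (5 genes) summed to 124.7 to 188.4 FPKM in old and 101.8 to 123.9 FPKM in young libraries, and dendritic cell markers (6 genes) to 3.00 to 7.86 FPKM in old and 7.19 to 9.67 FPKM in young libraries. Among the dendritic cell markers Cd209a was apart and lower in old (log2 change -0.82), and Ccr7 overlapped. Myoblast markers (4 genes) summed to 0.882 to 1.496 FPKM in old and 1.45 to 3.83 FPKM in young libraries. Erythroid markers (6 genes, 3 of them at 0 throughout) summed to at most 1.11 FPKM in old and 0.844 FPKM in young libraries. Xist was at 21.9 to 30.2 FPKM in old and 21.3 to 22.4 FPKM in young libraries, and the 4 Y-linked genes examined were at 0 in all 6 libraries. The muscle fibre, fibroblast and lymphocyte sums were lower in every old library than in any young library, and the lymphocyte sum was almost all Ighm, at 13.0 to 18.9 FPKM in old and 21.7 to 51.8 FPKM in young libraries. The monocyte sums were barely apart, with Plac8 apart and higher in old and Ccr2 at 24.9 ± 5.41 FPKM in old and 37.6 ± 11.03 FPKM in young libraries (SD, n = 3 each; log2 change -0.55). Chil3, the largest part of the sum in every old library, was at 65.9 to 145.4 FPKM in old and 44.0 to 84.6 FPKM in young libraries. Ly6c2, a gene of the sort marker Ly6C, was at 2.46 to 7.68 FPKM in old and 1.31 to 3.20 FPKM in young libraries. Its groups overlapped too (log2 change 0.97, limma adjusted p = 0.305). The part of these cells in the results on the antioxidant genes was not tested. In sorted bulk samples, fewer cells of a type and less RNA per cell cannot be told apart.

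The 10 genes spanned a wide range of levels. Hmox1 was the highest and ranked 120 among the 11108 tested genes, those averaging 1 FPKM or more, followed by Prdx1 at rank 229. Cat and Txnrd1 came next, then Srxn1 and Gclc, then Gclm and Gsr, with Slc7a11 and Nqo1 at the low end. Neighbours in this order whose ranges over the 6 libraries overlapped were Cat and Txnrd1, Srxn1 and Gclc, Gclm and Gsr, and Slc7a11 and Nqo1. Of these pairs only Srxn1 and Gclc kept the same order in all 6 libraries. Gclm exceeded Gsr in 4 of 6, and Cat exceeded Txnrd1 in 5 of 6.

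The question put to these genes was whether old macrophages carried them at other levels than young macrophages. None of the 9 tested members passed the threshold (limma adjusted p under 0.05 over all genes), and 0.036% of all 11108 genes did. Slc7a11, Gsr and Cat were the clearest of the 10, with every old library below every young library. That makes 3 of 9 tested members with groups that did not overlap, all 3 lower in old, where 20.9% of all tested genes did not overlap in either direction and 8.59% were lower in old. Slc7a11 averaged under 1 FPKM in old and entered the test through its young values, so this count is a description, and without it 2 of 8 were apart. Without old replicate 2, with fewer values left to overlap, Gclm and Hmox1 were also apart and lower and Gclc apart and higher, which makes 6, where 33.7% of all tested genes were apart under that setting. At an unadjusted p under 0.05 the same 3 and Gclm were lower in old and no member was higher, where 15.0% of all genes reached that level in either direction and 6.18% were lower. The median log2 change of the 9 was -0.22, against 0.01 over all tested genes, with 6 negative and 3 positive values. Slc7a11 is included in these counts and in the median, so they too are descriptions. Nqo1, at a mean under 1 FPKM, was not tested.

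**Figure D1:**
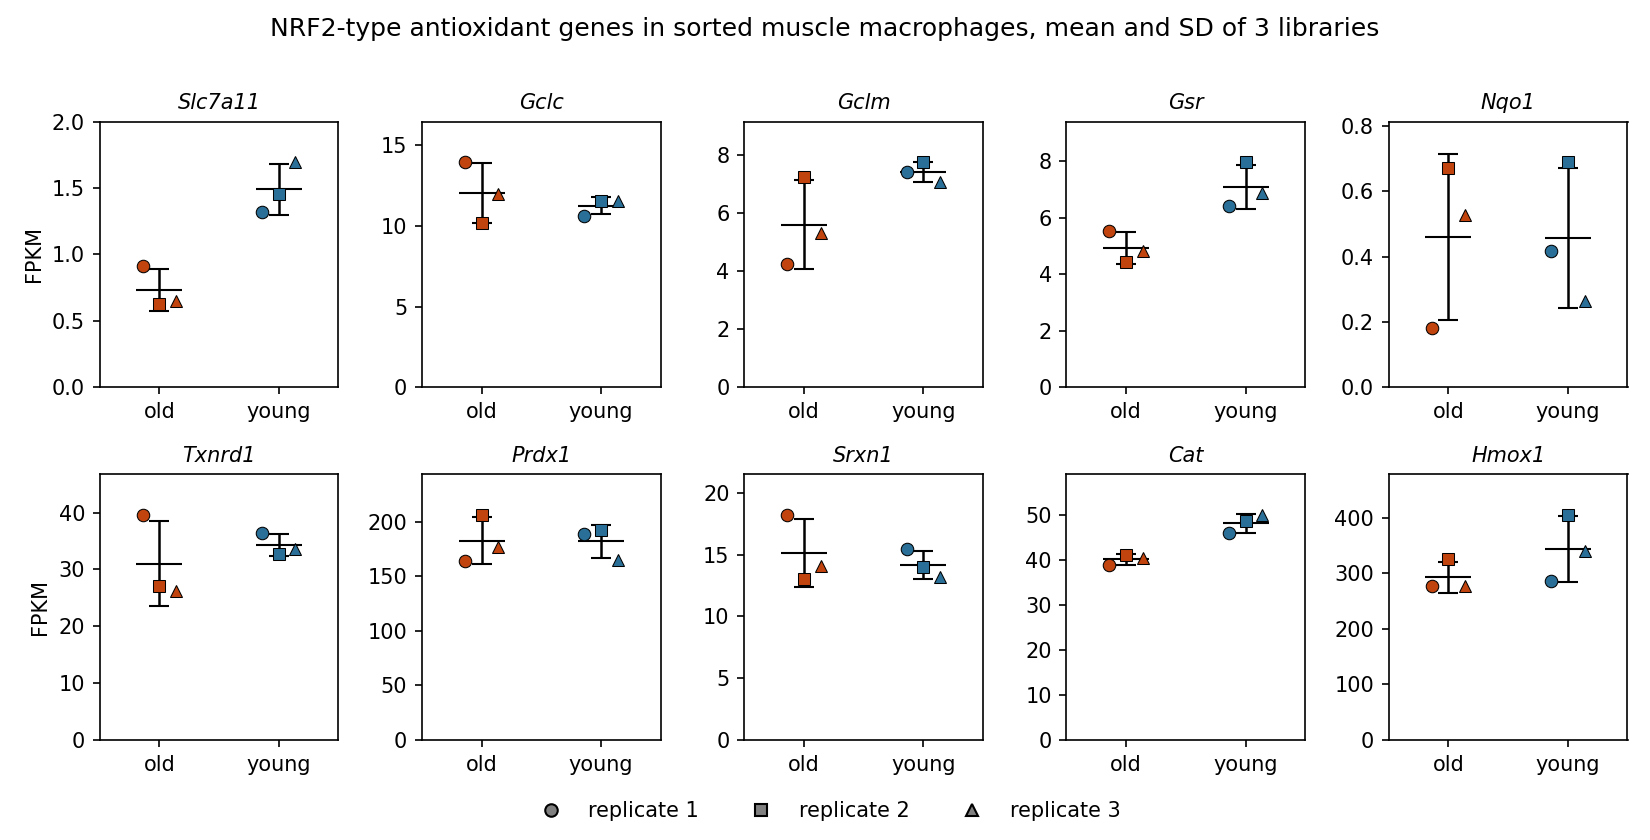
FPKM of each of the 10 genes (vertical axes, each from 0) in the 3 old and 3 young libraries, with black bars for the mean and SD. Slc7a11, Gsr and Cat have all old points below all young points, and for the other 7 genes the groups overlap.

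The cystine and glutathione genes held the largest differences among the 10. Slc7a11 encodes xCT, the membrane exchanger that brings in cystine, from which the cysteine of glutathione is made (chromosome 3, 49892526 to 50443614, minus strand, protein-coding). It had 0.912, 0.630 and 0.646 FPKM in old replicates 1 to 3, from 227, 151 and 165 fragments. The young libraries had 1.32, 1.46 and 1.70 FPKM, from 340, 341 and 402 fragments. Every old value lay below every young value, and the mean of the old libraries was 0.489 times that of the young. As log2(FPKM + 1), a scale that compresses low values, the difference was -0.53 (SE 0.12, limma adjusted p = 0.172). Because its old mean of 0.729 FPKM was below the minimum of 1, Slc7a11 entered the test through its young values. Fitted as recovered fragments with limma voom, a scale without that compression and one chosen after seeing the data, the difference was -1.04 and it passed (adjusted p = 0.0444), where 0.374% of all genes passed. Its partner chain Slc3a2, shared with other amino acid transporters, had 222.7 ± 18.3 FPKM in old and 199.9 ± 9.10 FPKM in young libraries (SD, n = 3 each), a far higher level in both groups.

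Gsr encodes glutathione reductase, which returns oxidised glutathione to its working form with NADPH (chromosome 8, 33652523 to 33698163, plus strand). It had 5.55, 4.43 and 4.81 FPKM in old replicates 1 to 3, against 6.42, 7.97 and 6.89 FPKM in young replicates 1 to 3. The groups did not overlap, and the difference was -0.45 on the log2 scale (SE 0.10, 95% interval -0.69 to -0.21, limma adjusted p = 0.171). Old replicate 1 and young replicate 1 were the nearest to each other, as they were for Slc7a11.

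Gclc and Gclm encode the catalytic and the modifier subunit of glutamate-cysteine ligase, which makes the first bond of glutathione. Gclm (chromosome 3, 122245557 to 122270732, plus strand) had 4.24, 7.26 and 5.31 FPKM in old replicates 1 to 3, against 7.41, 7.76 and 7.08 FPKM in young replicates 1 to 3. Old replicate 2 lay inside the young range and the other old libraries below it. The difference was -0.37 (SE 0.16, limma adjusted p = 0.331), with -0.22 without old replicate 1 and -0.55 without old replicate 2 as the extremes over left-out libraries. Gclc (chromosome 9, 77754535 to 77794485, plus strand) had 13.96, 10.2 and 11.99 FPKM in old libraries and 10.7, 11.6 and 11.6 FPKM in young libraries, a difference of 0.08 (95% interval -0.18 to 0.34, limma adjusted p = 0.774). The library highest in Gclc among the old, replicate 1, was the lowest in Gclm. The level of Gclc over that of Gclm was 3.29, 1.40 and 2.26 in old replicates 1 to 3 and 1.44, 1.49 and 1.64 in young replicates 1 to 3. The ratios of old and young libraries overlapped (exact permutation p = 0.4). They lay closer together in the young libraries, and this difference in spread was not tested.

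The promoters of these genes show what sequence lies in front of the members that differed most. Windows of 250 bases upstream of the start site were taken from RefSeq (GRCm38.p6), which held 7 of the 10 genes (not Gsr, Hmox1 and Gclc). The sequences printed here stop before the annotated gene. The core of the antioxidant response element was searched as TGACNNNGC on both strands, which occurs in 10.2% of the 32851 promoter windows. It was found for 3 of the 7 genes, namely Gclm, Prdx1 and a second Txnrd1 start that lies within the annotated gene (GCTTTGTCA, bases -92 to -84 of that start). Txnrd1 had more than 1 window, so by window, as for the share of all windows, the core was in 3 of 9. Slc7a11 is also known as a target of ATF4, a factor of the amino acid response, and its window was searched for TGATGCAA on both strands. That motif occurs in 0.792% of all windows, and the Slc7a11 window holds 2, at -66 to -59 and at -47 to -40 from the start site. Slc7a11 is shown with these 2 matches in capitals (chr3:50443615-50443863, minus strand), and Gclm with its antioxidant core in capitals (chr3:122245307-122245556, plus strand). A match is a description of the letters and not evidence of binding.
Slc7a11: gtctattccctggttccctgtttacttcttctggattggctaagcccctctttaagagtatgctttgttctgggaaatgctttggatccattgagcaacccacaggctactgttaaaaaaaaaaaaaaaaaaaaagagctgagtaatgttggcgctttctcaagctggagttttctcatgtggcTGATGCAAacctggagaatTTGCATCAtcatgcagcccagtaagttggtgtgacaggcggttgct
Gclm: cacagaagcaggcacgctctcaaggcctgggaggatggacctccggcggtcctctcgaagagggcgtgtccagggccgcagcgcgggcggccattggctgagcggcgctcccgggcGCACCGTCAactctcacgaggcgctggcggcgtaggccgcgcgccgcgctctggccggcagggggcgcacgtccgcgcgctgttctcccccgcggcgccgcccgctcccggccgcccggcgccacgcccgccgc

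In the thioredoxin branch all 3 members had overlapping groups. Txnrd1 encodes the cytosolic thioredoxin reductase, a selenium-containing enzyme that keeps thioredoxin reduced (chromosome 10, 82833951 to 82897712, plus strand). It had 39.6, 27.1 and 26.2 FPKM in old replicates 1 to 3, against 36.5, 32.7 and 33.6 FPKM in young replicates 1 to 3. Old replicates 2 and 3 lay below all young libraries and old replicate 1 above them. The difference was -0.16 (SE 0.15, limma adjusted p = 0.667). It was -0.35 without old replicate 1, -0.08 without old replicate 2 and -0.06 without old replicate 3. 

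Prdx1 encodes a peroxiredoxin that reduces hydrogen peroxide (chromosome 4, 116685544 to 116700822, plus strand). It had 164.2, 206.1 and 176.6 FPKM in old libraries and 188.6, 192.4 and 164.5 FPKM in young libraries. The young values lay within the range of the old ones, and the difference was 0.0005 with a 95% interval of -0.26 to 0.26 (limma adjusted p = 0.999). Its sign turned with the scaling, at -0.068 under quantile normalization and -0.061 when rescaled to TPM. Srxn1 encodes sulfiredoxin, which repairs peroxiredoxins that hydrogen peroxide has overoxidised (chromosome 2, 152105516 to 152111376, plus strand). It had 18.2, 13.0 and 14.1 FPKM in old replicates 1 to 3, against 15.4, 13.96 and 13.2 FPKM in young replicates 1 to 3, a difference of 0.08 (95% interval -0.22 to 0.37, limma adjusted p = 0.818). Old replicate 1 was again the highest old library, and without it the difference was -0.0585.

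Prdx1 and Srxn1 are shown as members with overlapping groups, Prdx1 with the antioxidant core in its window and Srxn1 without it. In Prdx1 the capitals mark the antioxidant core at -133 to -125 from the RefSeq start, which lies inside the annotated gene (chr4:116685349-116685543, plus strand). In Srxn1 they mark 2 copies of TGACTCA on the reverse strand, the site shared by AP-1 and MAF-type factors, which occurs in 4.46% of all windows (chr2:152105274-152105515, plus strand). The Prdx1 core overlaps 1 of 2 matches to TGACTCA in that window.
Prdx1: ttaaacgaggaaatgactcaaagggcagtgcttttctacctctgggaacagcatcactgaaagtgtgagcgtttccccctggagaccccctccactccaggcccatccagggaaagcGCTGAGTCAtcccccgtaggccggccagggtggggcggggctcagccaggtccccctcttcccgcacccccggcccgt
Srxn1: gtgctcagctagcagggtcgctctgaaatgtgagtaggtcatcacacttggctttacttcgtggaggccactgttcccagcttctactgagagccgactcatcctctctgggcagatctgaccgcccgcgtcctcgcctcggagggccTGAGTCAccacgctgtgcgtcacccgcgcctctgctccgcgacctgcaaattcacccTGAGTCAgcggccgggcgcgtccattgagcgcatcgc

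Among the other enzymes, Cat had the tightest values. It encodes catalase, the peroxisomal enzyme that splits hydrogen peroxide into water and oxygen (chromosome 2, 103453849 to 103485160, minus strand). Cat had 38.8, 41.0 and 40.4 FPKM in old replicates 1 to 3, against 45.9, 48.6 and 49.97 FPKM in young replicates 1 to 3. The highest old library was below the lowest young one, and within each group the highest library was at most 1.09 times the lowest. The difference was -0.26 (SE 0.06, 95% interval -0.41 to -0.11, limma adjusted p = 0.172), a mean in old of 0.833 times that in young. Its promoter window had no match to the antioxidant core and 4 matches to CCAAT, the box bound by NF-Y, on the 2 strands together, shown in capitals (chr2:103485161-103485403, minus strand). CCAAT occurs in 33.9% of all windows.
Cat: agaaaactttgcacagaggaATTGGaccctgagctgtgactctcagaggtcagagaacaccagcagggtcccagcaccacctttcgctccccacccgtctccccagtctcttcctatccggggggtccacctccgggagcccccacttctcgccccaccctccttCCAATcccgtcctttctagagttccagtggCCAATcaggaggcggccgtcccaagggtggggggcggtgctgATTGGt

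Hmox1 encodes heme oxygenase 1, which opens the heme ring and frees iron, carbon monoxide and biliverdin (chromosome 8, 75093621 to 75100589, plus strand). It had 277.4, 325.4 and 277.4 FPKM in old replicates 1 to 3, against 286.3, 405.7 and 339.8 FPKM in young replicates 1 to 3. The groups overlapped through old replicate 2 and young replicate 1. The difference was -0.22 (SE 0.14, limma adjusted p = 0.519), with -0.09 without young replicate 2 and -0.34 without young replicate 1 as the extremes over left-out libraries. Hmox2, the constitutive form, had 42.4 ± 2.79 FPKM in old and 40.2 ± 1.04 FPKM in young libraries (SD, n = 3 each).

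Nqo1 encodes a quinone reductase that is often used as a readout of NRF2 in other tissues (chromosome 8, 107388225 to 107403206, minus strand). It was barely present in these macrophages, at 0.180, 0.673 and 0.527 FPKM from 5, 18 and 15 fragments in old libraries, against 0.418, 0.689 and 0.265 FPKM from 12, 18 and 7 fragments in young libraries. At this depth no difference between the groups was detectable. Nqo2, a related quinone reductase, was present at 8.36 to 9.18 FPKM in old and 6.90 to 8.39 FPKM in young libraries.

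**Figure D2:**
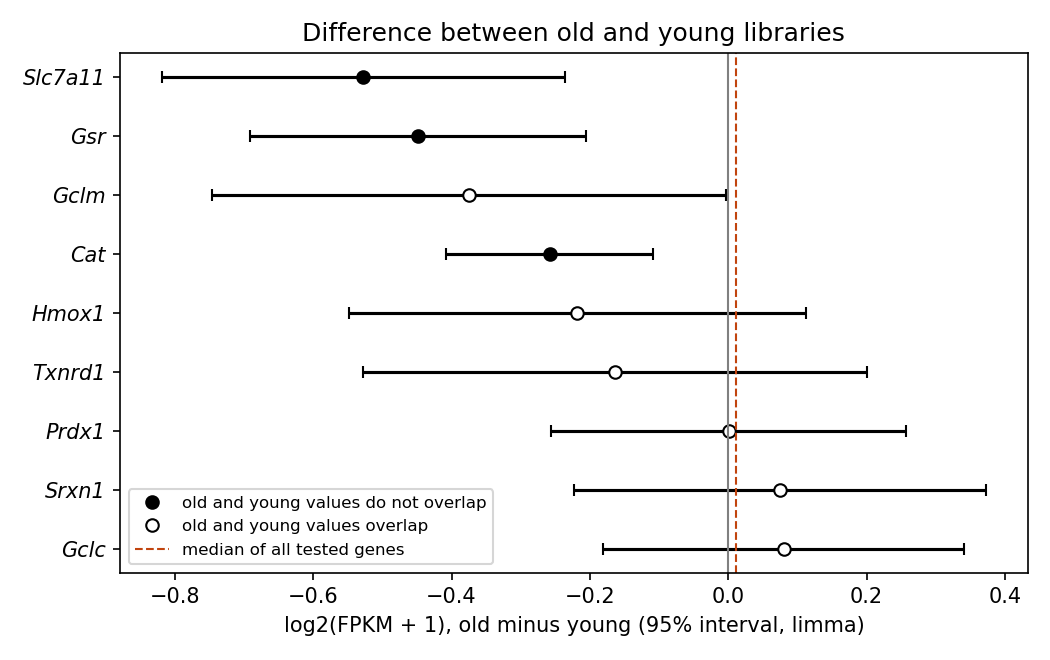
Difference on the log2(FPKM + 1) scale, old minus young (horizontal axis), with the 95% interval for the 9 tested genes (vertical axis). Filled points mark Slc7a11, Gsr and Cat, whose groups do not overlap, and the dashed line at 0.01 is the median of all tested genes.

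The 10 genes did not move as a block from library to library. Among the old libraries, replicate 1 was the highest in 5 genes (Gclc, Gsr, Slc7a11, Srxn1 and Txnrd1) and the lowest in the other 5 (Cat, Gclm, Hmox1, Nqo1 and Prdx1). Old replicate 2 was the highest in Cat, Gclm, Hmox1, Nqo1 and Prdx1. Among the young libraries, replicate 2 was the highest in 5 (Gclm, Gsr, Hmox1, Nqo1 and Prdx1). The highest old library was 1.71 times the lowest for Gclm, 1.51 times for Txnrd1 and 1.40 times for Srxn1, where the young libraries gave 1.10, 1.11 and 1.17 times. This spread was wider in old than in young libraries for 8 of the 10 genes and narrower for Cat and Hmox1, at 1.17 times in old and 1.42 times in young for Hmox1, and the difference in spread was not tested. Over the 6 libraries, the mean of the 10 genes after scaling each to its own spread was followed most closely by A630001G21Rik (r = 0.979), Gm8991 (0.975), AF357399 (0.965), Swt1 (0.964) and Cntrob (0.964), and 10 of 11099 other genes had r of at least 0.95. The values of r are descriptions of 6 libraries that share the split by age.

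**Figure D3:**
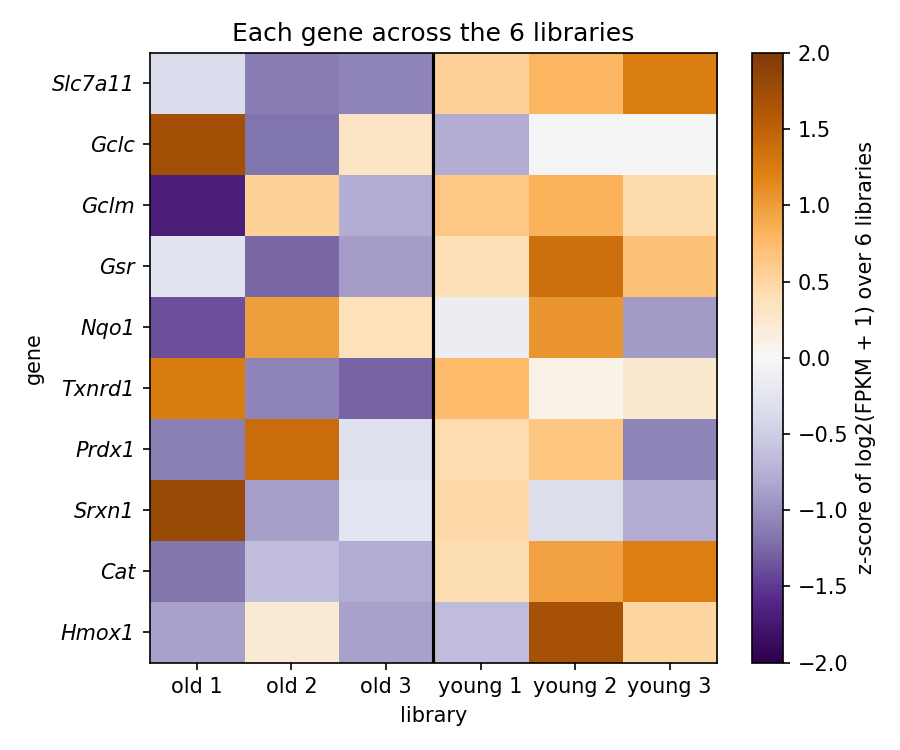
Each of the 10 genes (rows) in the 6 libraries (columns, old left of the line), coloured by its z-score of log2(FPKM + 1) over the 6 libraries. Old replicates 1 and 2 show opposite colours for Gclc, Gclm, Nqo1, Txnrd1, Prdx1, Srxn1 and, faintly, Hmox1, while Slc7a11, Gsr and Cat are below their mean in all 3 old libraries.

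The genes that control NRF2 did not pass the threshold either. Nfe2l2 itself had 121.3, 116.0 and 126.2 FPKM in old replicates 1 to 3, against 117.5, 135.8 and 141.9 FPKM in young replicates 1 to 3, with overlapping groups (log2 change -0.12, limma adjusted p = 0.592). Of the 10 genes in this list, all were tested, 8 had positive and 2 negative changes, and the median was 0.08. Nfe2l1, an NRF2 relative known for proteasome genes, was the 1 with groups apart and an unadjusted p under 0.05, at 27.2 ± 0.51 FPKM in old and 23.4 ± 1.28 FPKM in young libraries (SD, n = 3 each; log2 change 0.21, limma adjusted p = 0.226). The genes of the degradation machinery had overlapping groups. Keap1 had 10.7 ± 0.60 FPKM in old and 10.1 ± 0.45 FPKM in young libraries (log2 change 0.07), and the log2 changes of the ligase genes Cul3 and Rbx1 were 0.05 and 0.18.

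The repressor Bach1 and the small MAF genes Mafk and Maff were highest in old replicate 1. Bach1 had 94.8, 69.7 and 79.0 FPKM in old replicates 1 to 3, against 74.1, 65.9 and 76.9 FPKM in young replicates 1 to 3. Mafk had 60.8, 37.8 and 44.5 FPKM in old libraries and 45.1, 31.3 and 37.9 FPKM in young libraries, and Maff 50.8, 27.0 and 26.7 FPKM in old and 34.4, 33.6 and 47.2 FPKM in young libraries. Mafg was steadier, with a log2 change of 0.02. Sqstm1, whose product p62 pulls KEAP1 away and which NRF2 induces in turn, had 533.6, 382.0 and 426.3 FPKM in old libraries and 445.2, 395.6 and 405.8 FPKM in young libraries. Old replicate 1 was the highest of the 6 for Bach1, Mafk, Maff and Sqstm1, as it was for Txnrd1, Srxn1 and Gclc, and in every case the groups overlapped. Genes of other kinds, among them Adgre1, Itgam, C1qa and Xist, were also highest in that library, while Cd68 and Lyz2 were not. The share of all tested genes that were highest there was not counted.

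**Figure D4:**
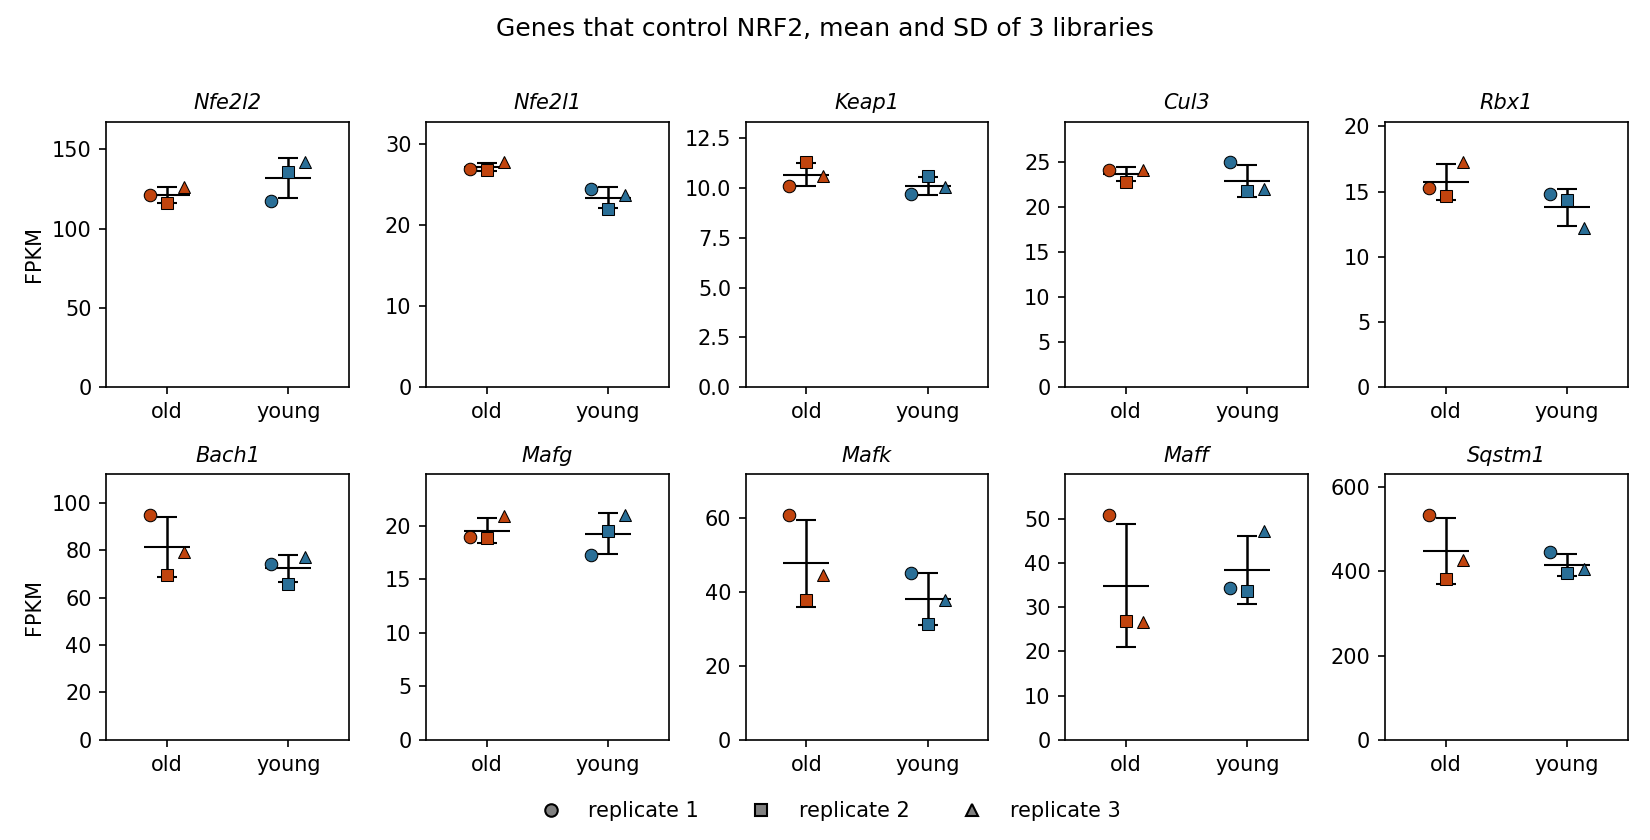
FPKM of the 10 genes that control NRF2 (vertical axes, each from 0) in the 3 old and 3 young libraries, with black bars for the mean and SD. Old replicate 1 (circle) stands above the other old libraries for Bach1, Mafk, Maff and Sqstm1, and the groups are apart for Nfe2l1 alone.

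The wider antioxidant network was read through 6 further lists. Together with the control genes they held 114 genes, of which 102 were tested, 0 passed the threshold over all genes, 8 were higher and 7 lower in old at an unadjusted p under 0.05 (limma), and the median log2 change was -0.01. The 15 genes are 14.7% of those tested, near the 15.0% of all genes. NADPH supply had the lowest median, -0.13 over 12 tested genes, with 8 negative and 4 positive values. Tkt, the transketolase of the pentose phosphate pathway, a main source of NADPH, had 36.1, 36.8 and 32.1 FPKM in old replicates 1 to 3, against 42.8, 40.9 and 42.3 FPKM in young replicates 1 to 3, with the groups apart (log2 change -0.26, limma adjusted p = 0.205). Taldo1, the transaldolase, had 115.1 ± 8.19 FPKM in old and 130.5 ± 3.10 FPKM in young libraries (log2 change -0.18), and G6pdx, which opens the pathway, 34.8 ± 1.41 FPKM in old and 38.2 ± 1.36 FPKM in young libraries (-0.13), both with the groups apart (SD, n = 3 each). Pgd, the next enzyme, had a log2 change of -0.12 with overlapping groups. The 4 positive values were those of Idh1 (0.13, groups apart), Me2 (0.09), Idh2 (0.09) and Nadk (0.01), enzymes outside the pentose phosphate pathway. Mthfd1 and Mthfd2, also outside that pathway, had negative values (-0.16 and -0.13) with overlapping groups, so the signs did not divide by pathway.

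Other glutathione genes had 21 of 26 tested, 9 positive and 12 negative changes, and a median of -0.01. Gpx1, the most abundant glutathione peroxidase, had 555.8 ± 6.70 FPKM in old and 534.2 ± 28.4 FPKM in young libraries. The transferases Gstm1 and Mgst1 had opposite signs at an unadjusted p under 0.05, with 31.8 ± 2.34 FPKM in old and 38.0 ± 3.25 FPKM in young libraries for Gstm1 (log2 change -0.25, limma adjusted p = 0.27) and 27.6 ± 6.62 FPKM in old and 19.3 ± 2.31 FPKM in young libraries for Mgst1 (0.47, limma adjusted p = 0.299; SD, n = 3 each). Gstm1 has near-identical relatives, and how the authors' counting split reads between these is uncertain. The glyoxalase gene Hagh and the glutathione-cleaving Ggt5 had log2 changes of -0.22 and -0.42. Of the 18 other thioredoxin and peroxiredoxin genes, all were tested and none had an unadjusted p under 0.05. Their median was -0.01 and their changes lay between -0.23, for Txnip, an inhibitor of thioredoxin, and 0.11, for Selenow, the most abundant of the list at 185.1 ± 11.4 FPKM in old and 171.7 ± 8.60 FPKM in young libraries. Prdx2 and Selenot had log2 changes of -0.10 and 0.08.

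The list of superoxide enzymes and the phagocyte oxidase had 9 of 10 tested, 2 positive and 7 negative changes, and a median of -0.10. Cyba, the p22 subunit of the oxidase, had 590.3 ± 47.6 FPKM in old and 506.9 ± 10.9 FPKM in young libraries (log2 change 0.22), and Ncf1, a cytosolic subunit, 78.2 ± 3.22 FPKM in old and 70.5 ± 2.12 FPKM in young libraries (0.15). Both had the groups apart, with limma adjusted p of 0.309 and 0.345 (SD, n = 3 each), and theirs were the 2 positive changes of this list. Rac2, the GTPase of the oxidase, had a log2 change of -0.18 with overlapping groups.

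Heme and iron handling had 14 of 16 tested, 7 positive and 7 negative changes and a median of 0.00. Slc40a1, the iron exporter ferroportin, had 0.348, 0.587 and 0.588 FPKM in old replicates 1 to 3, against 1.03, 3.50 and 3.67 FPKM in young replicates 1 to 3, with the groups apart (log2 change -1.22, SE 0.32, limma adjusted p = 0.19). It entered the test through its young values, and without young replicate 1 it passed (-1.61, limma adjusted p = 0.0376). That library was the young one nearest the old values, and without it 15 of all 11108 genes passed. Tfrc, the transferrin receptor that takes up iron, had 29.8 ± 4.24 FPKM in old and 21.2 ± 4.18 FPKM in young libraries (0.48, limma adjusted p = 0.24). The hemoglobin scavenger receptor Cd163 had 9.88 ± 3.04 FPKM in old and 5.998 ± 0.648 FPKM in young libraries (0.61, limma adjusted p = 0.226; SD, n = 3 each). Both Tfrc and Cd163 had the groups apart, higher in old. The ferritin adaptor Ncoa4 had a log2 change of -0.27, and ferritin heavy chain Fth1, at 4337 ± 324.1 FPKM in old and 4144 ± 130.3 FPKM in young libraries, differed by less than the spread between libraries.

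Further textbook NRF2 targets had 18 of 20 tested, 9 positive and 9 negative changes and a median of 0.00. Ephx1, the microsomal epoxide hydrolase, had 8.12, 5.15 and 5.51 FPKM in old replicates 1 to 3, against 11.6, 12.1 and 14.9 FPKM in young replicates 1 to 3. The groups were apart, the mean in old was 0.487 times that in young, and the difference was -0.95 (SE 0.16, limma adjusted p = 0.122). It passed with array weights (-0.97, limma adjusted p = 0.0457), and over 17 alternatives its adjusted p lay between 0.0457 and 0.374. Osgin1, an oxidative stress-induced growth inhibitor, had 6.53 ± 0.40 FPKM in old and 8.25 ± 0.27 FPKM in young libraries (-0.30, limma adjusted p = 0.169; SD, n = 3 each). Ugdh and the aldehyde reductase gene Akr1a1 had positive values, at 0.15 and 0.21, with the groups apart in both.

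**Figure D5:**
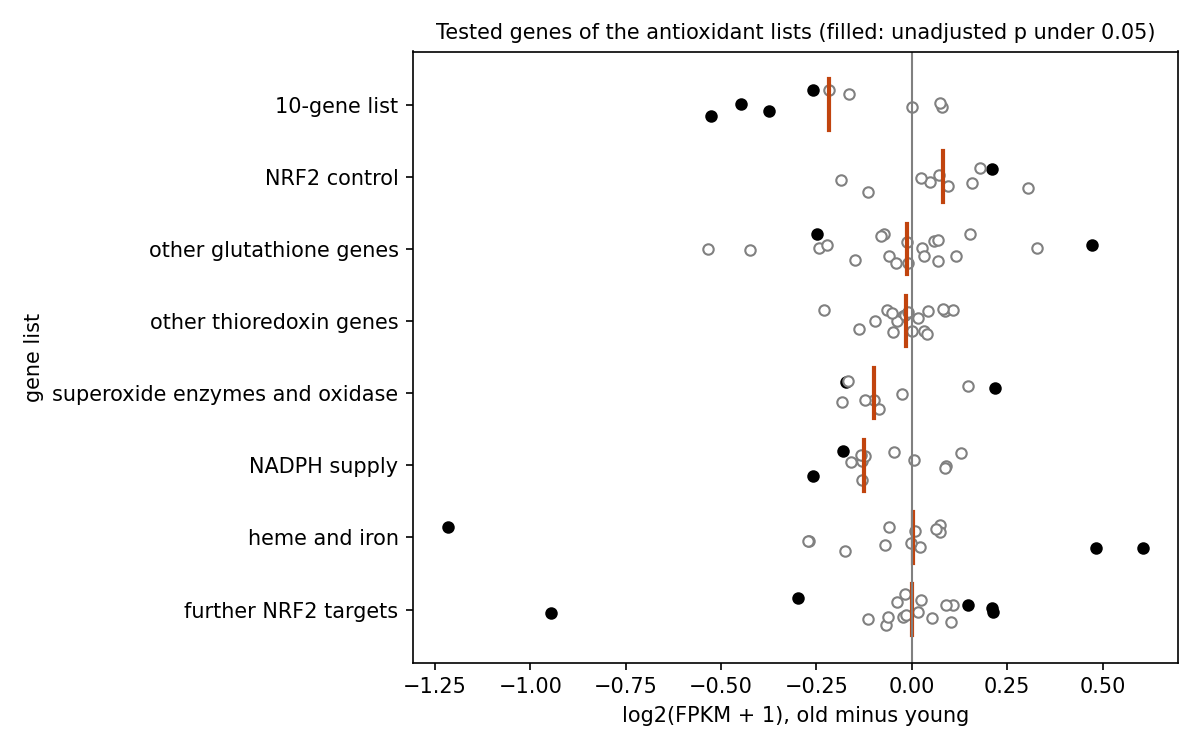
Difference on the log2(FPKM + 1) scale, old minus young (horizontal axis), of every tested gene in the 10-gene list and in 7 related lists (rows). Red bars mark list medians, from -0.22 for the 10 genes to 0.08 for the NRF2 control genes, and filled points have an unadjusted p under 0.05.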

How the data were processed

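RNA of 6 libraries of sorted macrophages, 3 old and 3 young, was prepared with the RNeasy Micro Kit, per the labels' protocols. The authors deposited 1 table of FPKM per gene. The submitters' processing notes name the build GRCm38.p6. For the aligner, counting tool, annotation release and use of strand, nothing is given in the sources used here, so reads of overlapping genes could be shared. Among the members only Gclm shares annotated exon bases with other genes, and these had means under 0.02 FPKM.

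Identifiers were matched to GENCODE M21 (99.14% matched). FPKM multiplied by exon-union length gave whole multiples of 1 fragment, within 0.02 and for multiples below 200, for 97.5% to 97.6% of values, and these are the recovered fragments. Values were taken as log2(FPKM + 1), and genes averaging under 1 FPKM over the 6 libraries were left out. The remaining 11108 genes were fitted old against young in limma 3.58.1 (R 4.3.3; moderated variances following a trend with level). Two-sided p-values were adjusted by Benjamini-Hochberg over these genes, and the threshold was 0.05. An exact two-sided permutation test on single genes cannot go below p = 0.1 here, and gave 0.1 for Slc7a11, Gsr and Cat.

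The members and lists were chosen with earlier results of these data known. Named genes were all members, all NRF2 control genes, the 4 of smallest p and the most abundant gene of each list, the marker lists, and the 5 genes most like the members. Slc3a2, Hmox2, Nqo2, Chac1, Nnt, Me1, Me2, Idh1, Idh2, Nadk, Mthfd1 and Mthfd2 are named outside that rule, after their values were seen. A gene that the rule names is not reported here. The fit was tested on simulated data. Figures were drawn with matplotlib 3.10.9 in Python 3.11.15.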

Additional observations from a re-analysis of the deposited data

How the results depend on the processing

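Of 152 refitted values of the 9 tested members, 143 kept their direction and their side of the threshold. Slc7a11 passed with voom on recovered fragments, added after the data were seen, so 1 member passed there against 0 otherwise. The other 8 took the opposite sign, all close to 0. These were Gclc without old replicate 1 (-0.0238, in a range up to 0.186 over left-out libraries), Srxn1 without old replicate 1 (-0.0585, up to 0.168), and Prdx1 with median-of-ratios scaling (-0.0008), quantile normalization (-0.0683), rescaling to TPM (-0.0614), array weights (-0.0378), and without old replicate 2 (-0.0909) or young replicate 3 (-0.07), in a range up to 0.0723. Slc7a11 lay between -1.04 and -0.47, Gsr between -0.56 and -0.37, and Cat between -0.32 and -0.23 in all alternatives run, with the 5 FPKM minimum leaving Slc7a11 out. Without 1 library, from 3 to 6 of the 9 members had groups apart, and 28.0% to 37.9% of all tested genes. The 6, without old replicate 2, were Slc7a11, Gsr, Cat, Gclm and Hmox1, lower in old, and Gclc, higher. Over all genes 4 passed, and 0 did when the pseudocount was 0.1 or 0.01, when no filter or a 5 FPKM minimum was used, or with the replicate block. Array weights gave 50 (30 higher and 20 lower), voom 41 (27 and 14), and leaving out 1 library from 0 to 15, the 15 without young replicate 1. Of the pathway list genes 0 passed, against 1 with array weights (Ephx1) and 0 to 1 without a library. The replicate numbers shared a label and no stated source. Deviations of same-numbered old and young libraries correlated at 0.032 to 0.054, and those of differently numbered ones at -0.067 to 0.024. Under the 3 other scalings the median change of all genes lay between -0.04 and 0.01. Nqo1 and Slc7a11 are limited by low levels.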

Other observations

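Chac1, which encodes an enzyme that breaks down glutathione and is a known target of ATF4, had 0.103, 0.248 and 0.300 FPKM in old replicates 1 to 3, against 0.991, 0.436 and 0.753 FPKM in young replicates 1 to 3. These values rest on 3, 7 and 9 fragments in old and 30, 12 and 21 fragments in young libraries. The groups did not overlap, which was also so for 20.9% of all tested genes. The mean was under the minimum of 1 FPKM, so Chac1 was not tested. A part of ATF4 in Chac1 or Slc7a11 was not tested. Chac1 was picked out after its values were seen.

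The level of Gsr over that of Txnrd1, the reductases of glutathione and thioredoxin, was 0.140, 0.163 and 0.183 in old replicates 1 to 3 and 0.176, 0.243 and 0.205 in young replicates 1 to 3. Nnt, which makes NADPH in mitochondria, was at most 0.016 FPKM in old and 0.067 FPKM in young libraries, and the NADPH-forming malic enzyme gene Me1 at most 0.170 FPKM in old and 0.253 FPKM in young libraries. These pairs were also picked out after their values were seen, and no test was made.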
